A study of Mus musculus with 24 samples.

Results

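Immune gene expression was compared between 6 NP1867 anti-PD-1 tumours and 6 DMSO anti-PD-1 tumours, which are 12 of the 24 CT26 tumours measured and were taken by their sample titles. CT26 is a mouse colon carcinoma line that grows under the skin of BALB/c mice, the strain it came from. For the NP1867 tumours, the cells had spent 40 weeks in culture with 0.5 uM NP1867, an inhibitor of PMS2. For the DMSO tumours, the cells had spent the same 40 weeks with the solvent DMSO. All 12 mice then received anti-PD-1 (a rat antibody, clone RMP1-14) at 5 mg/kg in 4 doses, and the tumours were removed on day 19 and fixed in formalin. The remaining 12 tumours, 6 NP1867 isotype and 6 DMSO isotype, came from mice given an isotype control antibody and are used where the difference between cultures is set beside the one under anti-PD-1. The comparison asks what the earlier inhibition of PMS2 in the cells leaves visible among treated tumours. The labels name no inhibitor treatment of the mice themselves.

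PMS2 is the nuclease subunit of the MutLα complex, which cuts the newly made DNA strand during mismatch repair. Cells without this repair collect small insertions, deletions and substitutions, some of which give altered peptides that T cells can recognise. PD-1 is a receptor that restrains activated T cells, and antibodies that block it are used in mismatch repair deficient cancers. The panel measured immune and cancer genes. It holds neither Pms2 nor any other gene of a mismatch repair list, so the action of the inhibitor could not be checked in these values.

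The values were log2 scaled counts of 750 genes from the NanoString nCounter Mouse PanCancer Immune panel, in which probes are counted singly without amplification. Testing was limited to the 600 genes whose mean over the 24 tumours reached log2 of 20. Total counts lay between 249656 and 687032 in NP1867 anti-PD-1 tumours (median 461526) and between 106186 and 568386 in DMSO anti-PD-1 tumours (median 356704), and DMSO tumours 11 and 37 were the only ones of the 12 under 200000. The log2 total differed by 0.57 between the groups (exact permutation p = 0.258, two-sided, 924 assignments, smallest p possible 0.00216). Tumours are named by the number in their titles. They had been picked near the mean volume of their group, and the labels do not say how many cultures of each kind were kept, so all p-values cover the spread between such tumours and not between cultures. In whole tumours, fewer cells of a type and less RNA per cell cannot be told apart. Of the carcinoma markers, Epcam was too low to be tested (10 to 49 counts in NP1867 tumours and 9 to 20 in DMSO tumours), while Ceacam1, an epithelial adhesion molecule, lay between 5.04 and 5.94 in NP1867 tumours and between 4.48 and 5.71 in DMSO tumours. The pan-leukocyte gene Ptprc lay between 8.92 and 10.23 in NP1867 tumours and between 8.44 and 9.70 in DMSO tumours.

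NP1867 tumour 78 stood apart from the rest. It held the highest value of the 12 tumours for 298 of 600 genes, 49.7%, and still for 146 genes, 24.3%, after each tumour was centred on its median. NP1867 tumour 30 came next with 98 genes, 16.3%, but held 54, 9.0%, after centring. At the other end, DMSO tumours 37 and 11, the shallow pair, held the lowest value for 133 genes, 22.2%, and 124 genes, 20.7%. As deposited, they held the highest value for 30 genes, 5%, and 29 genes, 4.83%. After centring they held it for 104 genes, 17.3%, and 100 genes, 16.7%. Lowest values were not counted after centring. Some named values moved by over 1.5 times when tumour 78, tumour 30 or the shallow tumours were left out. For many of these, though not all, the value without them is given beside it or under the dependence on processing. A value with none beside it was not thereby shown to be stable. Leaving out the shallow tumours here always means DMSO anti-PD-1 tumours 11 and 37 together with DMSO isotype tumours 6 and 23.

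No gene passed the test between NP1867 and DMSO tumours under anti-PD-1. limma called 0 of 600 genes (0%) at an adjusted p under 0.05, and the lowest adjusted p was 0.154, for Il1rn. At an unadjusted p under 0.05 there were 69 genes, 11.5% of those tested. This number was 129 when only the anti-PD-1 groups were fitted and 116 with the log2 scaling factor of each tumour as a covariate, in both cases with 0 genes called after adjustment. Of the 69 genes, 62 (10.3% of those tested) had the higher mean in NP1867 tumours and 7 (1.17%) the lower. The values leaned one way throughout the panel: the log2 fold change, NP1867 over DMSO, was above 0 for 514 genes, 85.7%, with a median of 0.27 (quartiles 0.08 and 0.45). It was 1 or more for 11 genes, 1.83%, and -1 or less for 0 genes, 0%. The median SE of a single gene's log2 fold change was 0.28, which does not measure the error of the panel's median.

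A shift shared by most genes is removed by construction when tumours are centred on their medians or quantile normalised. Neither scaling can therefore test the shift, and the values after scaling only describe what remains. With each tumour centred on its median, the panel's median log2 fold change was 0.03, with 324 genes above 0. After quantile normalisation it was 0.00, with 302 above 0. The unadjusted counts then became 27 higher and 21 lower after centring, and 25 higher and 22 lower after quantile normalisation. The tumour medians were 7.66 ± 0.26 in NP1867 tumours and 7.41 ± 0.16 in DMSO tumours (SD, n = 6 each), a difference of 0.25 (exact permutation p = 0.0736, two-sided). Leaving out each tumour in turn gave differences from 0.18 to 0.32. The exact permutation p was 0.0325 without NP1867 tumour 50, which had the lowest median of its group, and between 0.0563 and 0.149 in the other 11 cases. Without tumour 78 the median log2 fold change was 0.19 and the unadjusted counts were 32 higher and 7 lower. Without the shallow tumours they were 54 higher and 10 lower. Whether depth or tumour makeup has a part in the shift was not tested.

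Values of a group are given below as its lowest, median and highest tumour, on the deposited log2 scale. Il1rn encodes the interleukin 1 receptor antagonist, a secreted protein that blocks signalling by interleukin 1. It lay at 8.25, 9.28 and 9.59 in NP1867 tumours, against 7.19, 7.73 and 8.63 in DMSO tumours. Only NP1867 tumour 50 lay within the DMSO range; the other 5 lay above every DMSO tumour. The fitted ratio was 2.41-fold (log2 fold change 1.27, 95% interval 0.66 to 1.88, adjusted p = 0.154 by limma), and it was 1.02 after centring. Irf8, a transcription factor of dendritic cells, monocytes and B cells, lay at 8.01, 8.52 and 9.22 in NP1867 tumours, against 7.44, 7.83 and 7.96 in DMSO tumours. The groups did not overlap for it, but the lowest NP1867 tumour and the highest DMSO tumour were close to each other. Its log2 fold change was 0.78 (95% interval 0.37 to 1.18, adjusted p = 0.164), and 0.64 without tumour 78.

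Among surface receptors, Itgb3, the beta chain of the vitronectin receptor and of the platelet fibrinogen receptor, lay at 6.10, 6.56 and 7.58 in NP1867 tumours, against 4.86, 5.63 and 6.14 in DMSO tumours. Il2ra, the inducible alpha chain of the interleukin 2 receptor, lay at 5.85, 6.67 and 7.62 in NP1867 tumours, against 4.68, 5.80 and 5.95 in DMSO tumours. For both genes tumour 67 alone lay within the DMSO range, and tumour 30 was the highest. Their log2 fold changes were 1.10 (95% interval 0.48 to 1.72) for Itgb3 and 1.16 (0.49 to 1.83) for Il2ra, each with an adjusted p = 0.172. Clec7a encodes Dectin-1, a myeloid receptor for fungal glucans. It lay at 6.29, 7.07 and 7.70 in NP1867 tumours, against 5.73, 6.28 and 6.47 in DMSO tumours (log2 fold change 0.85, adjusted p = 0.244), with 5 of 6 NP1867 tumours above every DMSO tumour. Clec5a, another myeloid lectin receptor, had a log2 fold change of 0.63 (adjusted p = 0.248), with tumour 50 in the midst of the DMSO tumours and the other 5 above them. The adhesion ligand Icam1 (0.69) and the chemokine Ccl22 (0.96), which attracts cells with the receptor CCR4, likewise had 5 of 6 NP1867 tumours above the highest DMSO tumour.

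Inside the cell, Txnip, which binds and inhibits thioredoxin, lay at 10.63, 10.95 and 11.51 in NP1867 tumours, against 10.05, 10.45 and 10.69 in DMSO tumours (log2 fold change 0.58, adjusted p = 0.172). Jak1, a kinase of many cytokine receptors including those for interferons, had a log2 fold change of 0.55 (95% interval 0.21 to 0.89, adjusted p = 0.217). It lay at 8.74, 9.09 and 9.74 in NP1867 tumours, against 8.28, 8.62 and 9.0 in DMSO tumours. Both are small differences with a small spread, and both were closer to 0 after centring, 0.33 for Txnip and 0.30 for Jak1.

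**Figure D1:**
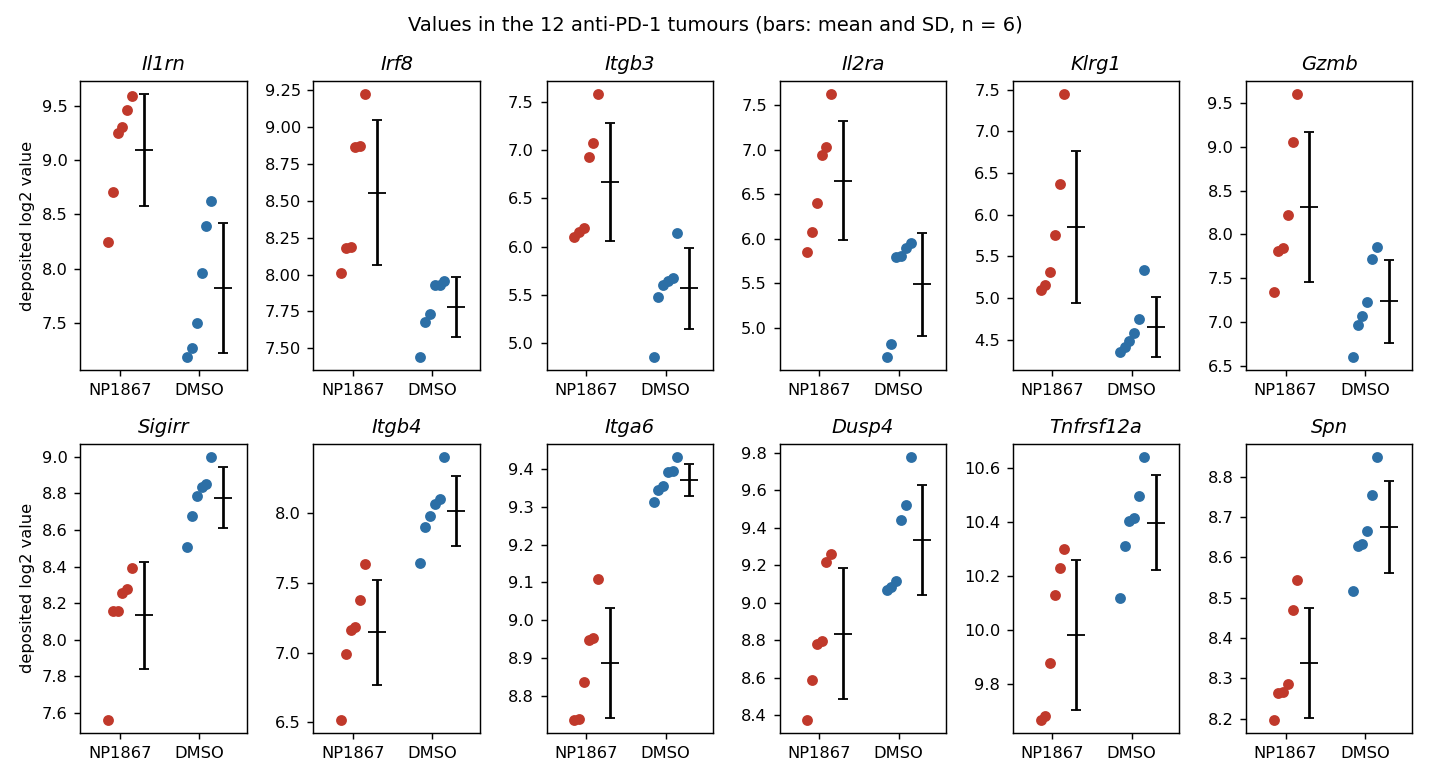
Deposited log2 values of 12 genes in the 6 NP1867 and the 6 DMSO tumours under anti-PD-1, 1 point per tumour; black bars give the mean and SD (n = 6), and each panel has its own vertical axis. The groups are apart for Irf8, Sigirr, Itgb4 and Itga6 and share part of their range for the other 8 genes.

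The genes with lower values in NP1867 tumours were fewer and differed by less. Sigirr encodes a receptor that dampens signalling by interleukin 1 and Toll-like receptors. It lay at 7.56, 8.21 and 8.39 in NP1867 tumours, against 8.51, 8.81 and 9.0 in DMSO tumours, and the groups did not overlap. Its log2 fold change was -0.64 (95% interval -0.99 to -0.30, adjusted p = 0.164 by limma), and -0.53 without tumour 78, the lowest of the 12. Itgb4 and Itga6 encode the beta and alpha chains of the laminin receptor of epithelial cells. Itgb4 lay at 6.52, 7.17 and 7.64 in NP1867 tumours, against 7.64, 8.02 and 8.40 in DMSO tumours (log2 fold change -0.87, 95% interval -1.47 to -0.26). Itga6 lay at 8.74, 8.89 and 9.11 in NP1867 tumours, against 9.31, 9.37 and 9.43 in DMSO tumours (log2 fold change -0.49, 95% interval -0.84 to -0.13). Neither chain overlapped between the groups, although the margin for Itgb4 was almost 0, and both had an adjusted p = 0.248.

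Spn encodes CD43, a heavily glycosylated protein of the leukocyte surface. It lay at 8.20, 8.28 and 8.54 in NP1867 tumours, against 8.52, 8.65 and 8.85 in DMSO tumours (log2 fold change -0.34, 95% interval -0.56 to -0.11, adjusted p = 0.248). Tumour 45 alone lay within the DMSO range. Tnfrsf12a, the receptor for the cytokine TWEAK, had a log2 fold change of -0.42 (adjusted p = 0.248) and Dusp4, a phosphatase that switches off MAP kinases, one of -0.50 (adjusted p = 0.252). All 6 NP1867 tumours were below the DMSO mean for both, as they were for 16 of 600 genes, 2.67%, while for 105 genes, 17.5%, all 6 were above it. Gtf3c1, a subunit of an RNA polymerase III initiation factor, lay at 7.26, 7.40 and 7.54 in NP1867 tumours, against 7.61, 7.68 and 7.99 in DMSO tumours (log2 fold change -0.32, adjusted p = 0.278), and the groups did not overlap. The endothelial adhesion molecule Sele (-0.55), the complement lectin protease Masp1 (-0.45) and the poliovirus receptor gene Pvr (-0.37) completed the 10 lower genes with the lowest p. Each of these 3 had an adjusted p = 0.427, and each interval reached beyond 0. After centring or quantile normalisation all 10 stayed negative and lay further from 0, since the panel's own shift was then removed.

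Groups that did not overlap were seen for 8 of 600 genes, 1.33%. The NP1867 tumours were the higher for 4 of them, 0.667%, namely Irf8, Notch1, Ep300 and Tnf, and the lower for 4, 0.667%, namely Sigirr, Itgb4, Itga6 and Gtf3c1. Notch1, a cell surface receptor of cell fate decisions, lay at 7.86, 8.08 and 8.45 in NP1867 tumours, against 7.43, 7.63 and 7.82 in DMSO tumours (log2 fold change 0.48, adjusted p = 0.248). Ep300, a histone acetyltransferase, had a log2 fold change of 0.29, about the median of all genes, and 0.04 after centring. Tnf, the inflammatory cytokine, lay at 6.51, 6.73 and 7.07 in NP1867 tumours, against 6.14, 6.22 and 6.50 in DMSO tumours (log2 fold change 0.48, adjusted p = 0.427), and its margin between the groups was almost 0, as for Itgb4. After centring, 9 genes were without overlap, of which 2 were higher and 7 lower in NP1867 tumours. Irf8, Sigirr, Itgb4 and Itga6 were among these 9, and the other 4 genes then overlapped.

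**Figure D2:**
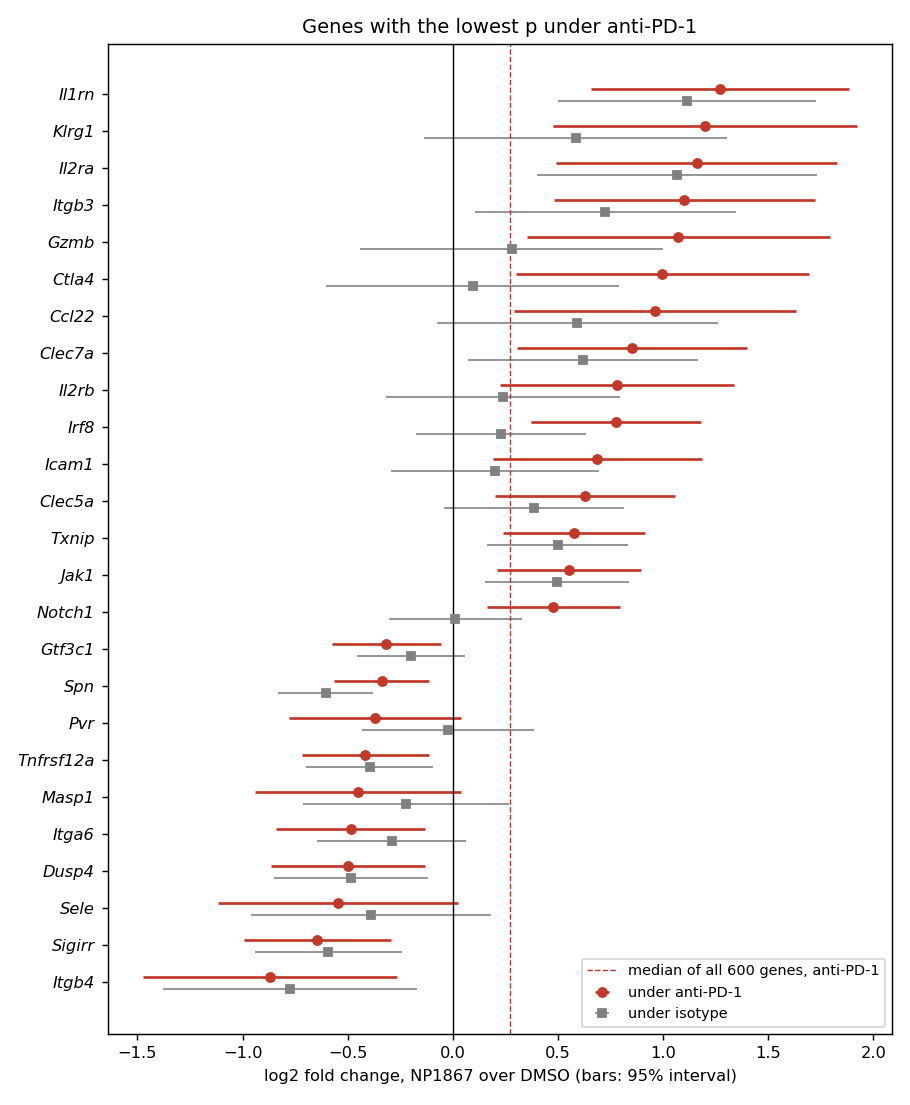
Log2 fold change, NP1867 over DMSO, with its 95% interval for the 15 higher and the 10 lower genes with the lowest p under anti-PD-1 (circles), and for the same genes under isotype (squares). The dashed line is the median of all 600 genes under anti-PD-1, 0.27; intervals are not adjusted for the number of genes.

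Genes of cytotoxic lymphocytes had some of the widest gaps, and these rested on a few tumours. Gzmb encodes granzyme B, a protease of lytic granules, and Prf1 perforin, which forms pores in target cells. Gzmb lay at 7.35, 8.03 and 9.60 in NP1867 tumours, against 6.60, 7.15 and 7.85 in DMSO tumours (log2 fold change 1.07, 95% interval 0.35 to 1.79, adjusted p = 0.248). Prf1 lay at 7.56, 8.22 and 10.41 in NP1867 tumours, against 6.75, 7.64 and 7.97 in DMSO tumours (log2 fold change 1.09, 95% interval 0.26 to 1.93, adjusted p = 0.278). The highest values belonged to tumours 30 and 45, at 9.60 and 9.06 for Gzmb and at 10.41 and 9.74 for Prf1. Without tumour 30 the log2 fold changes were 0.81 for Gzmb and 0.74 for Prf1.

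Receptors of natural killer cells and of effector T cells had the same top tumour. Klrg1, a receptor of experienced killer and T cells, lay at 5.09, 5.53 and 7.44 in NP1867 tumours, against 4.35, 4.53 and 5.34 in DMSO tumours (log2 fold change 1.20, adjusted p = 0.187; 0.88 without tumour 30). Ncr1, which encodes the activating receptor NKp46, had a log2 fold change of 0.72 (adjusted p = 0.278; 0.44 without the shallow tumours). Il2rb, the signalling beta chain of the receptors for interleukins 2 and 15, lay at 9.22, 9.99 and 10.60 in NP1867 tumours, against 8.49, 9.24 and 9.45 in DMSO tumours (log2 fold change 0.78, adjusted p = 0.248). Tumour 30 was the highest for all 3 genes. All 9 tested natural killer genes had a log2 fold change above 0, as had 85.7% of all genes. Their median was 0.50 (0.25 after centring) against 0.27 over all genes (0.03 after centring). An unadjusted p under 0.05 was found for 2 of the 9 and for 11.5% of all genes. Of the 8 tested genes for CD8 T cells and cytotoxic effectors all were above 0 as well, with a median of 0.38 (0.13 after centring) and 3 under an unadjusted 0.05. Adjusted over the panel, 0 genes of either list passed. The mean over the cytotoxic list was 7.73 in tumour 30 and 7.31 in tumour 45, while the other 4 NP1867 tumours lay between 6.26 and 6.73, against 6.06 to 6.53 in DMSO tumours.

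Cd3e, Cd8a and Ifng, which mark T cells and their activity, had smaller log2 fold changes, with intervals across 0. Cd3e, a chain of the T cell receptor complex, lay at 6.36, 6.88 and 7.37 in NP1867 tumours, against 6.00, 6.61 and 6.94 in DMSO tumours. The log2 fold change was 0.33 (95% interval -0.39 to 1.04, adjusted p = 0.601). Cd8a, the coreceptor of cytotoxic T cells, had a log2 fold change of 0.32 (95% interval -0.37 to 1.01), and Ifng, which encodes interferon-gamma, 0.29 (95% interval -0.51 to 1.09; 0.19 without tumour 30). These intervals hold a lower mean as well as a doubling in NP1867 tumours, so neither likeness nor difference was shown. The 15 tested T cell genes had a median of 0.33, close to the 0.27 of all genes. An unadjusted p under 0.05 was found for 11.5% of all genes and for 3 of these 15. One of those, Il7r, the receptor chain for interleukin 7, lay at 5.27, 6.61 and 7.22 in NP1867 tumours, against 4.97, 5.45 and 5.71 in DMSO tumours. Its log2 fold change was 1.08 (95% interval 0.26 to 1.89, adjusted p = 0.278), and tumour 48 alone lay within the DMSO range.

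Checkpoint and co-stimulatory genes were uneven. Ctla4, an inhibitory receptor that competes with CD28 for its ligands, lay at 5.49, 6.24 and 7.59 in NP1867 tumours, against 4.71, 5.35 and 5.66 in DMSO tumours (log2 fold change 0.996, 95% interval 0.30 to 1.69, adjusted p = 0.248). Icos, a co-stimulatory receptor of activated T cells, had a log2 fold change of 0.78 (adjusted p = 0.278). Pdcd1, which encodes PD-1 itself, lay at 5.38, 6.24 and 6.50 in NP1867 tumours, against 5.61, 6.11 and 6.29 in DMSO tumours (log2 fold change 0.06, 95% interval -0.54 to 0.66, and -0.19 after centring). The groups overlapped over most of their range for Pdcd1. Cd274, the gene of the ligand PD-L1, lay at 8.57, 9.43 and 9.85 in NP1867 tumours, against 8.27, 8.80 and 9.15 in DMSO tumours (log2 fold change 0.60, adjusted p = 0.355). Cd276, the gene of B7-H3, a member of the B7 family, had a log2 fold change of 0.63 (adjusted p = 0.278; 0.46 without tumour 78). The inhibitory receptor Lag3 had a log2 fold change of 0.53 (95% interval -0.13 to 1.18). Of 12 tested inhibitory checkpoint genes 10 were above 0, with a median of 0.35 (0.10 after centring, 0.23 without tumour 78). Of these 12, 3 had an unadjusted p under 0.05. Of 11 co-stimulatory genes 11 were above 0, with a median of 0.37 (0.13 after centring), and 2 had one. Over all genes 85.7% were above 0, with a median of 0.27 (0.03 after centring), and 11.5% had one. In both lists 0 genes passed after adjustment.

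Of the 6 tested regulatory T cell genes, 4 had an unadjusted p under 0.05, against 11.5% of all genes. The median log2 fold change of the 6 was 0.60 (0.35 after centring), against 0.27 over all genes (0.03 after centring). The list includes Il2ra and Ctla4, which other activated T cells carry too, and its defining gene went the other way. Foxp3, whose product sets up the regulatory T cell programme, lay at 2.04, 4.77 and 5.35 in NP1867 tumours, against 4.71, 4.83 and 5.15 in DMSO tumours. The log2 fold change was -0.44 (95% interval -1.28 to 0.39, adjusted p = 0.56), and 0.03 without NP1867 tumour 67, whose value rests on 3 counts.

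**Figure D3:**
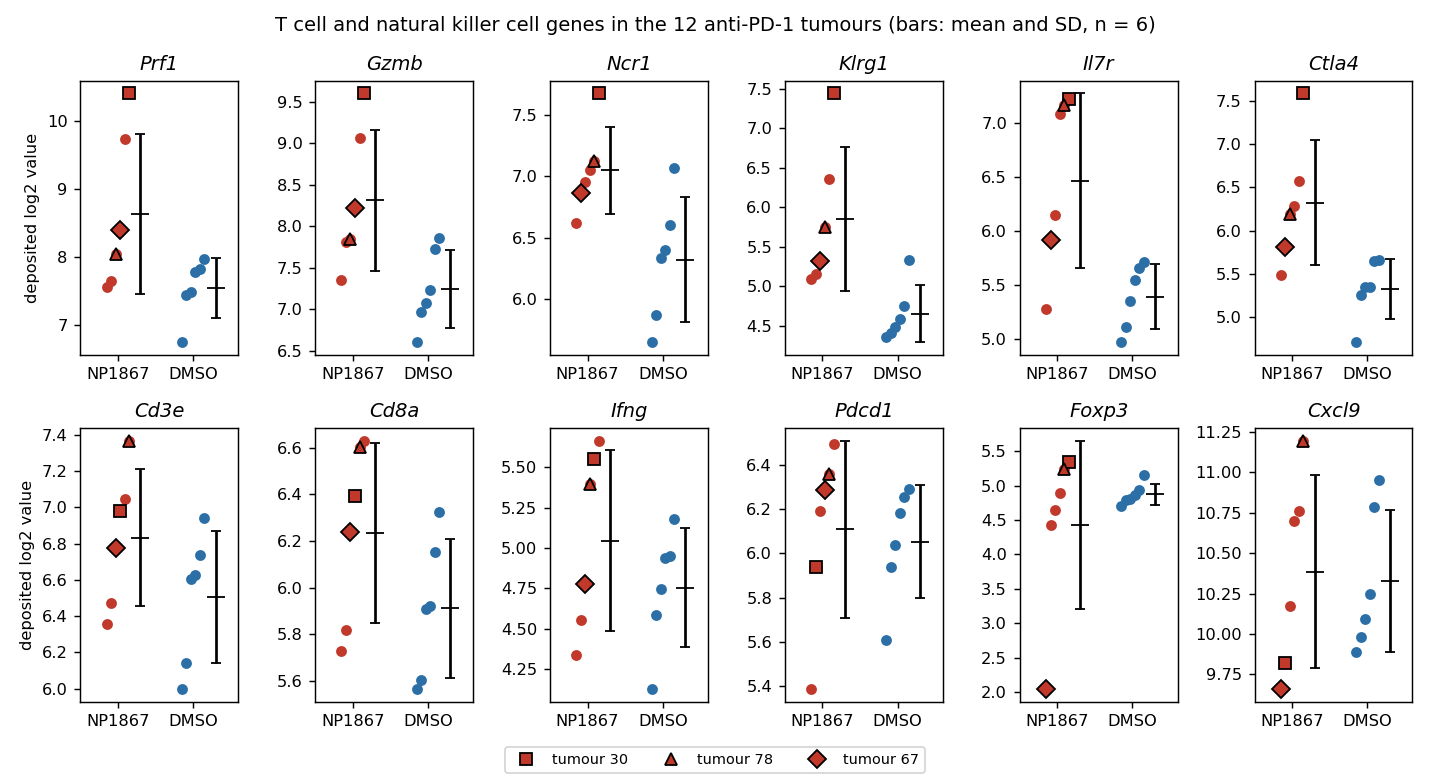
Deposited log2 values of 11 lymphocyte genes and of the chemokine gene Cxcl9 in the 6 NP1867 and the 6 DMSO tumours under anti-PD-1; points are tumours, and black bars give the mean and SD (n = 6). Square, triangle and diamond mark NP1867 tumours 30, 78 and 67: tumour 30 is the highest for Prf1, Gzmb, Ncr1, Klrg1, Il7r, Ctla4 and Foxp3, and tumour 67 is the lowest for Foxp3 at 2.04.

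Antigen presentation genes had means above those of DMSO tumours with wide intervals. H2-Eb1, a beta chain of the MHC class II molecule that shows peptides to CD4 T cells, lay at 10.47, 11.27 and 12.88 in NP1867 tumours, against 9.52, 10.92 and 11.89 in DMSO tumours. Tumours 78 and 45 were above all DMSO tumours, and the other 4 lay among them. The log2 fold change was 0.72 (95% interval -0.39 to 1.83, adjusted p = 0.501), 0.45 without tumour 78 and 0.47 without the shallow tumours. Cd74, the invariant chain that escorts class II molecules, had a log2 fold change of 0.63 (95% interval -0.33 to 1.59; 0.36 without the shallow tumours). H2-DMa, which helps to load their peptides, was at 0.53 (95% interval -0.06 to 1.12; 0.34 without the shallow tumours). All 10 tested class II genes were above 0, where 85.7% of all genes were and 11.5% had an unadjusted p under 0.05. Their median of 0.61 (0.36 after centring, 0.40 without tumour 78, 0.41 without the shallow tumours) was the largest of the 31 lists in the values as deposited, but 1 gene had an unadjusted p under 0.05 and 0 passed after adjustment. Among 16 tested genes of MHC class I and peptide loading, 15 were above 0, with a median of 0.28, that is at the level of all genes. The classical class I gene H2-K1 had a log2 fold change of 0.31 (0.20 without the shallow tumours), its transcriptional activator Nlrc5 0.43, and Cd1d1, which presents lipids, 0.73 (95% interval -0.11 to 1.56).

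The 20 tested macrophage and monocyte genes were all above 0, where 85.7% of all genes were. Their median was 0.36 (0.11 after centring, 0.20 without the shallow tumours), against 0.27 over all genes (0.03 after centring). An unadjusted p under 0.05 was found for 11.5% of all genes and for 1 of the 20. That gene was Trem2, a lipid receptor of tissue macrophages, at 7.30, 8.10 and 8.92 in NP1867 tumours, against 7.16, 7.37 and 7.69 in DMSO tumours (log2 fold change 0.65, adjusted p = 0.248; 0.48 without tumour 78). Cd68, a lysosomal protein of macrophages, had a log2 fold change of 0.40 (95% interval -0.16 to 0.97; 0.24 without tumour 78 and 0.18 without the shallow tumours). The neutrophil list, of which 5 genes were tested, had a median of 0.56 (0.32 after centring), and 0.31 without tumour 78. Its S100a8, a calcium-binding protein abundant in neutrophils, lay at 7.75, 8.52 and 10.23 in NP1867 tumours, against 6.51, 7.63 and 8.36 in DMSO tumours (log2 fold change 1.02, 95% interval -0.13 to 2.17; 0.69 without tumour 78 and 0.62 without the shallow tumours). The protease Ctsg, which neutrophils and mast cells store, lay at 3.78, 5.14 and 8.37 in NP1867 tumours, against 3.60, 4.46 and 5.20 in DMSO tumours, with tumours 30 and 45 above all others. Its log2 fold change of 1.23 (95% interval -0.05 to 2.50) was 0.68 without tumour 30. Dendritic cell genes, 6 of them tested and led by Irf8, had a median of 0.50 (0.26 after centring), all above 0.

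Over all genes 85.7% were above 0 and 11.5% had an unadjusted p under 0.05, with a median of 0.27 (0.03 after centring). Of 18 tested genes of the interferon-gamma list, 17 were above 0 and 6 had such a p, with a median of 0.41 (0.17 after centring). Irf8, Cd274 and Icam1 described above are among these genes. Cxcl9, a chemokine induced by interferon-gamma, had a log2 fold change of 0.06 (95% interval -0.84 to 0.96) and -0.19 after centring, and 3 NP1867 tumours on each side of the DMSO mean. Ccl5, a T cell attracting chemokine, lay at 8.77, 9.17 and 10.81 in NP1867 tumours, against 7.40, 8.61 and 9.05 in DMSO tumours (log2 fold change 0.96, adjusted p = 0.278; 0.68 without tumour 78).

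In the type I interferon list 0 of 22 tested genes had an unadjusted p under 0.05, against 11.5% of all genes. The median was 0.18, below that of all genes, and -0.06 after centring. It was 0.12 without tumour 78, 0.10 without tumour 30 and 0.11 without the shallow tumours. Isg15, a ubiquitin-like protein strongly induced by type I interferon, lay at 8.70, 9.66 and 10.19 in NP1867 tumours, against 8.78, 9.57 and 9.84 in DMSO tumours. Its log2 fold change was 0.19 (95% interval -0.43 to 0.80), -0.06 after centring, 0.12 without tumour 78 and 0.07 without tumour 30. Sensors of nucleic acids, through which cytosolic DNA can induce these genes, likewise had 0 of 14 under that mark and a median of 0.17 (-0.08 after centring, 0.09 without tumour 78). Tmem173, the gene of STING, lay at 7.56, 7.69 and 8.43 in NP1867 tumours, against 7.22, 7.97 and 8.22 in DMSO tumours. For STING the log2 fold change was 0.04 (95% interval -0.44 to 0.51), turning to -0.21 after centring.

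Values of the tumour stroma genes rested on tumour 78 at the high end and on the shallow DMSO tumours at the low end. Col1a1, the alpha 1 chain of collagen I, lay at 11.28, 12.21 and 14.70 in NP1867 tumours, against 10.38, 12.15 and 13.07 in DMSO tumours. The medians were nearly equal, and the log2 fold change of 0.76 (95% interval -0.69 to 2.21) was 0.33 without tumour 78 and 0.06 without the shallow tumours. Over the 8 fibroblast and matrix genes the median was 0.32, and it was 0.13 without tumour 78 and 0.09 without the shallow tumours. The 11 endothelial genes had a median of 0.26, which was 0.12 without tumour 78, 0.11 without tumour 30 and 0.10 without the shallow tumours. Pecam1, an adhesion molecule of blood vessels, had a log2 fold change of 0.65 (95% interval -0.08 to 1.37), while Sele, induced on inflamed endothelium, was at -0.55. Proliferation was the single list with a median below 0 in the values as deposited, at -0.02 over 7 genes, and it was 0.04 without tumour 78. Birc5, the gene of the mitotic protein survivin, lay at 7.82, 8.33 and 8.55 in NP1867 tumours, against 8.07, 8.31 and 8.49 in DMSO tumours (log2 fold change -0.05, 95% interval -0.31 to 0.21). The 18 genes for DNA damage, p53 and apoptosis had a median of 0.08 (-0.17 after centring, 0.12 without the shallow tumours). Casp8, which starts apoptosis at death receptors, was at 0.29 (0.12 without the shallow tumours).

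**Figure D4:**
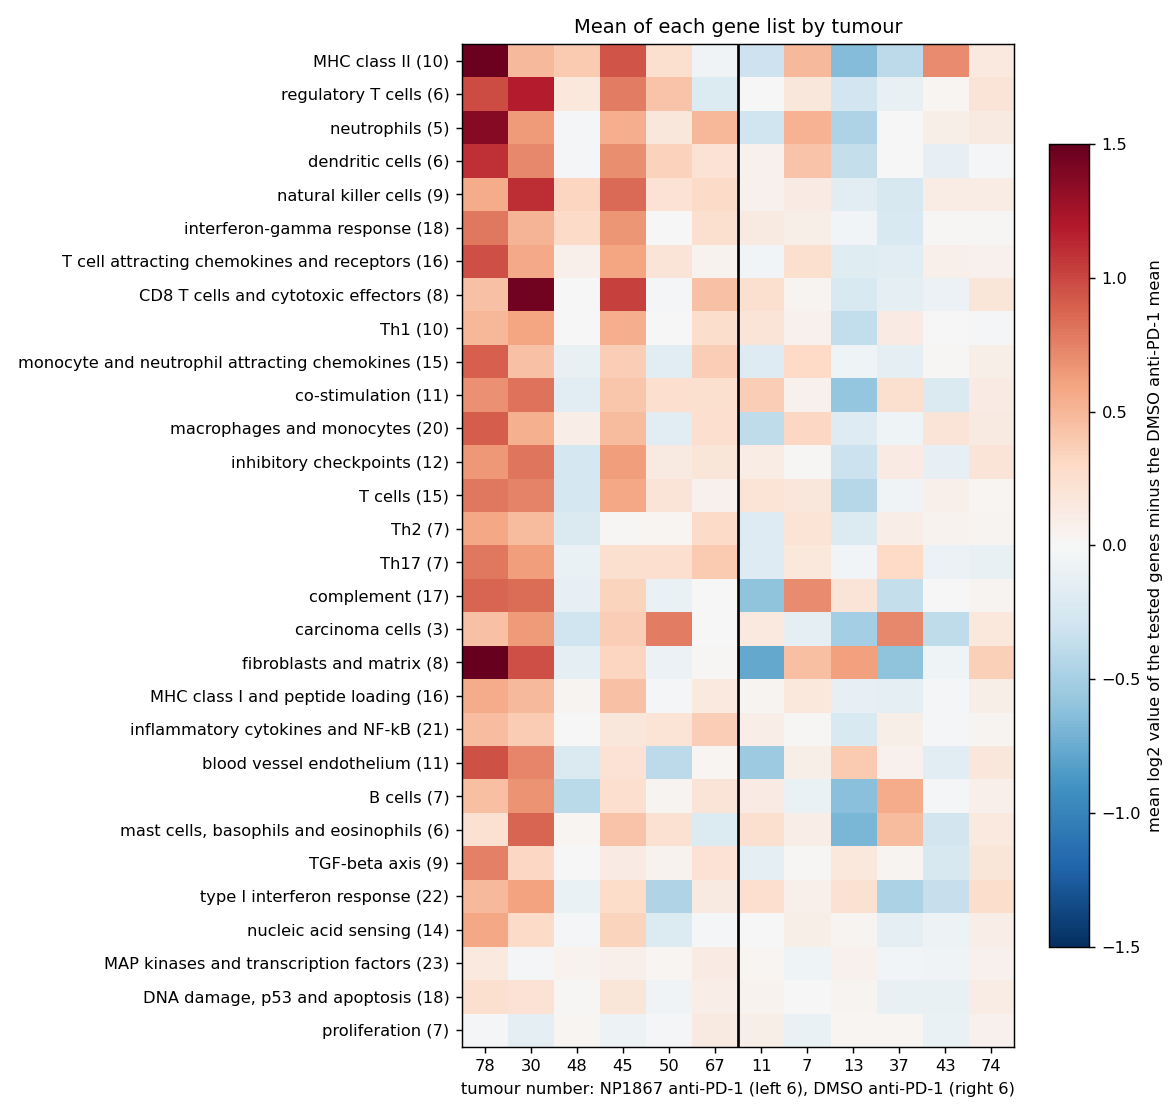
Mean log2 value of each gene list with at least 3 tested genes (number in brackets) in each anti-PD-1 tumour, minus the mean of the 6 DMSO anti-PD-1 tumours; red is above and blue below that mean. NP1867 tumours stand left of the black line, and tumour 78 is the highest of them in 19 lists and tumour 30 in 9.

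Across all lists, 30 of 31 with at least 1 tested gene had a median above 0. The median over all genes was itself 0.27, with 85.7% of single genes above 0, so this count does not set the lists apart. Lists with a median above 0 numbered 22 after centring and 21 after quantile normalisation. Members called were 0 in every list. Within the NP1867 group, tumour 78 had the highest mean in 19 lists and tumour 30 in 9, while tumour 48 had the lowest in 15 and tumour 50 in 10. Under anti-PD-1 the NP1867 tumours also had the larger spread: the median SD over genes was 0.43 among NP1867 tumours and 0.31 among DMSO tumours, and the SD was larger in NP1867 tumours for 402 genes, 67.0%. Without tumour 78 the median SD of the NP1867 group was 0.36. Under isotype the order was the opposite, with a median SD of 0.46 among NP1867 tumours and 0.54 among DMSO tumours. The difference in spread was not tested.

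The same difference between cultures was measured in the 12 isotype tumours. Their means do not enter the fold changes given above, but they share the filter and the estimate of the spread with them. There, Spn was called lower, with a log2 fold change of -0.60 (adjusted p = 0.0067 by limma), and it was the only call, 1 of 600 genes (0.167%). At an unadjusted p under 0.05 there were 46 genes, 7.67%, and the median log2 fold change was 0.10. DMSO isotype tumours 6 and 23 had the fewest counts of all 24, 90640 and 62699, and without the shallow tumours the number was 93 and the median 0.25. Spn was thus below DMSO under both antibodies, with the test passed under isotype alone. The call on Spn under isotype was lost after centring (lowest adjusted p 0.12), after quantile normalisation (0.0945) and when only the isotype groups were fitted (0.439).

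Most genes that led under anti-PD-1 had the same sign under isotype. Of the 62 higher genes at an unadjusted p under 0.05, 58 (93.5%) were above 0 under isotype too, where 63.8% of all genes were. The other 4 were Il7r, Irak2, Rel and Slamf7. Of the 7 lower genes, 7 were below 0 there, where 36.2% of all genes were. Il1rn had a log2 fold change of 1.27 under anti-PD-1 and 1.11 under isotype, Il2ra 1.16 and 1.07, and Itgb3 1.10 and 0.72. Sigirr was at -0.64 under anti-PD-1 and -0.59 under isotype, Itgb4 at -0.87 and -0.77, and Dusp4 at -0.50 and -0.49. Some lymphocyte genes were further apart. Prf1 was at 1.09 under anti-PD-1 and 0.24 under isotype, Ctla4 at 0.996 and 0.09, Ncr1 at 0.72 and 0.03, and Il7r at 1.08 and -0.14. Without the shallow tumours the isotype values were 0.25 for Prf1, 0.49 for Ctla4, 0.23 for Ncr1 and 0.45 for Il7r. The anti-PD-1 values were then 0.97 for Prf1, 1.01 for Ctla4, 0.44 for Ncr1 and 1.13 for Il7r. An unadjusted p under 0.05 in both comparisons was found for 16 genes, which is 23.2% of the 69 under anti-PD-1 and 34.8% of the 46 under isotype, and all 16 had the same sign in both. Over the 600 genes the log2 fold changes under the 2 antibodies had a Pearson correlation of 0.47 and a Spearman correlation of 0.43. This describes genes of the same 24 libraries, and the labels do not say how many cultures lie behind either difference. The Pearson correlation was 0.36 without the shallow tumours. The sign was shared by 431 genes, 71.8%, by 389, 64.8%, after centring, and by 82.0% without the shallow tumours.

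Whether the difference between cultures was itself different under anti-PD-1 was tested as an interaction. limma called 0 of 600 genes (0%), with a lowest adjusted p of 0.995, and 11 genes (1.83%) had an unadjusted p under 0.05, all with the more positive NP1867 effect under anti-PD-1. So the gap between, for example, Prf1 under the 2 antibodies was not shown to be larger than the spread between tumours. Over all genes the median of the interaction was 0.13, and it was -0.03 without the shallow tumours. At an unadjusted p under 0.05 there were 13 higher and 0 lower genes after centring, and 10 higher and 3 lower after quantile normalisation. Without the shallow tumours there were 7 in all. The 5 genes with the lowest p were above 0 under anti-PD-1 and below 0 under isotype. Lilra5, an immunoglobulin-like receptor of myeloid cells, had log2 fold changes of 0.41 under anti-PD-1 and -0.82 under isotype. Il12rb1, a chain of the interleukin 12 receptor, was at 0.46 under anti-PD-1 and -0.70 under isotype. Klrc2, a natural killer receptor, was at 0.86 and -0.86, Xcr1, a chemokine receptor of cross-presenting dendritic cells, at 0.45 and -0.51, and the NF-kB subunit Rel at 0.42 and -0.15. The isotype values moved towards 0 without the shallow tumours, to -0.44 for Lilra5, -0.39 for Il12rb1, -0.07 for Klrc2, -0.20 for Xcr1 and -0.09 for Rel. The anti-PD-1 values were then 0.60 for Lilra5, 0.52 for Il12rb1, 1.08 for Klrc2, 0.50 for Xcr1 and 0.39 for Rel. The lowest adjusted p of the interaction was then 0.996.

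The list medians under isotype also rested on the shallow tumours. The median of the MHC class II list was 0.61 under anti-PD-1 and -0.18 under isotype, and under isotype it turned to 0.06 without DMSO isotype tumour 23 alone. That of the T cell list was 0.33 under anti-PD-1 and -0.10 under isotype, and there 0.20 without tumour 23. For the natural killer list the medians were 0.50 and 0.03, and for the regulatory T cell list 0.60 and 0.35. Without the shallow tumours they were 0.42 under anti-PD-1 and 0.20 under isotype for natural killer genes, and 0.52 and 0.52 for regulatory T cell genes. The sign of the class II and T cell lists under isotype therefore depended on 1 tumour.

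**Figure D5:**
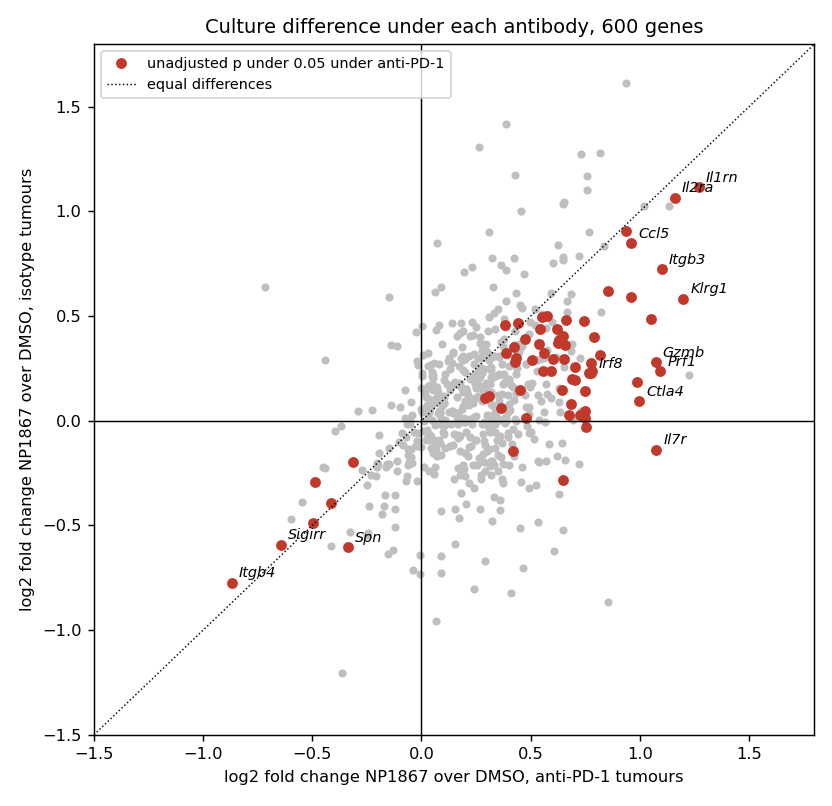
Log2 fold change, NP1867 over DMSO, of each of the 600 tested genes in anti-PD-1 tumours (horizontal) and in isotype tumours (vertical). Coloured points are the 69 genes with an unadjusted p under 0.05 under anti-PD-1, and the dotted line marks equal differences; Il1rn, Il2ra, Sigirr and Itgb4 lie near it, and Prf1, Ctla4 and Il7r lie below it.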

How the data were processed

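RNA from formalin-fixed tumours was measured on the nCounter panel, per the labels' protocols. The authors deposited 1 table of log2 values for 750 genes in 24 tumours; the steps of their normalisation are not given in the sources used here. Once unlogged, 100% of the deposited log2 values were whole counts (to within 0.05) times 1 factor per tumour, which gave the total counts. These totals set the precision of low genes. No 2 of the 24 tumours held identical values (276 pairs, r from 0.842 to 0.984). Symbols are those of the table.

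Groups came from the sample titles. limma 3.58.1 in R 4.3.3 fitted 4 group means to the deposited log2 values of all 24 tumours, for 600 genes whose mean reached log2 of 20 (150 genes were not tested); the residual degrees of freedom were 20 and those of the trended empirical Bayes prior 4.33. Tests were two-sided, with Benjamini-Hochberg adjustment over the 600 genes of a comparison and a threshold of 0.05; SEs and 95% intervals come from the fit and are unadjusted. Depth measures were compared by an exact permutation test over all assignments of the 12 anti-PD-1 tumours. The fit was tested on simulated data, whose genes varied independently and had no shared shift. It called 26% of log2 changes of 0.5, 69.7% of those of 1 and 97.1% of those of 2. Of its calls there, 3.61% were false.

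Gene lists have no test and are given by counts and medians beside all genes. Genes named are the 15 higher and 10 lower with the lowest p under anti-PD-1, the 2 members of each list with the lowest p, a fixed set of immune genes, genes whose groups do not overlap, 5 genes each for the interaction and for isotype, by lowest p, and those with the largest SD; the text describes some of these, and 1 of them is not reported here. Irak2 and Slamf7 are named outside this rule, after their values were seen, to complete a count. The groups, lists and genes were chosen with earlier results of these data known. The alternatives tried were a stricter filter at 50 (466 genes) or none, subtraction of tumour medians, quantile normalisation, array weights, a robust prior, a fit of the 2 groups on their own, Ptprc, the log2 factor or the log2 total as a covariate, 10 added before the logarithm, limma-voom on the recovered counts, no tumours under 200000 counts, and each tumour left out in turn.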

Additional observations from a re-analysis of the deposited data

Results flagged for a closer look

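Among 214 checks of a group of 6 anti-PD-1 tumours (76 genes and 31 list means, NP1867 and DMSO), 7 had a tumour far from the other 5 by Dixon's criterion; chance gives about 1 in 20. Of these, 3 concerned NP1867 tumour 78. It was low for Sigirr, at 7.56 against 8.16 in the nearest NP1867 tumour. It was high for Cd276, at 7.54 against 6.73, and for S100a8, at 10.23 against 8.65.

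NP1867 tumour 67 was low for Foxp3, at 2.04 against 4.42, and NP1867 tumour 30 was high for Tnfrsf9, the co-stimulatory receptor 4-1BB, at 7.89 against 7.23. DMSO tumour 13 was low for Icos, at 4.54 against 5.58, and DMSO tumour 37 for Ep300, at 8.22 against 8.56. Without the tumour concerned, the log2 fold change was -0.53 for Sigirr, 0.46 for Cd276, 0.69 for S100a8 and 0.03 for Foxp3.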

How the results depend on the processing

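The count of 0 genes under anti-PD-1 was the same in all 13 alternatives other than leaving out 1 tumour, and ran from 0 to 2 when 1 tumour was left out. Without DMSO anti-PD-1 tumour 74 it was 1 (Il1rn, adjusted p = 0.0464), and without NP1867 anti-PD-1 tumour 50 it was 2 (Il1rn, 0.0378, and Irf8, 0.0437); over 25 alternatives the adjusted p by limma reached 0.375 for both genes, with log2 fold changes from 1.003 to 1.44 and from 0.53 to 0.89. The number of genes at an unadjusted p under 0.05 ran from 39 (without NP1867 tumour 78) to 113 (without NP1867 tumour 50) when 1 tumour was left out, and was 129 with only the groups compared, 116 with the log2 factor and 97 with the log2 total as a covariate, 100 with array weights, and 47 to 76 in the other alternatives. The interaction stayed at 0. The single call under isotype was 0 after centring, quantile normalisation or fitting only the groups compared, 13 with array weights, 2 with Ptprc as a covariate, and 1 when any 1 tumour was left out. The tumour median difference was 0.18 to 0.32 when 1 tumour was left out. Lists with a median above 0 numbered 29 to 31 in those fits.

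Of 1882 pairs of a named gene and an alternative, 34 had the opposite sign, in 8 genes; the cause was not tested. After centring these were Pdcd1 (-0.190), Cxcl9 (-0.188), Isg15 (-0.0579) and Tmem173 (-0.211), and after quantile normalisation Cd3e (-0.0102), Pdcd1 (-0.290), Cxcl9 (-0.158), Isg15 (-0.0743) and Tmem173 (-0.234). With Ptprc as a covariate they were Cd3e (-0.0335), Pdcd1 (-0.112), Cxcl9 (-0.411), Isg15 (-0.0207), Tmem173 (-0.213) and Col1a1 (-0.0331). Array weights turned Pdcd1 (-0.0558), Cxcl9 (-0.161), Tmem173 (-0.0689) and Birc5 (0.0335), and leaving out tumours under 200000 counts turned Cxcl9 (-0.0456) and Tmem173 (-0.0873). With 1 tumour left out, values ran from -0.628 to 0.0346 for Foxp3, -0.0321 to 0.202 for Pdcd1, -0.103 to 0.205 for Cxcl9, -0.0854 to 0.115 for Tmem173 and -0.110 to 0.0356 for Birc5.

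No paired analysis was possible because the NP1867 and DMSO anti-PD-1 groups share no tumour number, and the isotype groups share 1. With 6 tumours a group and 1 panel each, low genes in shallow tumours rest on few counts.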
